A study of Mus musculus with 6 samples.

Results

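The genes described here are 38 markers of microglia and related macrophages, taken by name from a fixed list and read out of an expression comparison over 22180 genes. All 38 were measured. Each was represented by a probe set whose platform annotation named that gene alone, and where a gene had several such probe sets, by the one with the highest mean over the arrays. Only Irf8 and Selplg had more than 1. Hippocampal RNA came, at postnatal day 56, from male mice with C57BL/6J as strain background, 3 samples being Trpc4 wild type and 3 Trpc4 knock out. Strain background, sex, age and tissue were the same in both groups. The labels name neither the part of Trpc4 that was deleted nor any cell-type-specific driver. Whether each sample is a mouse of its own is not stated, and the p-values then rest only on the scatter of these samples, part of which may be technical.

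Microglia are the resident macrophages of the brain parenchyma. In the healthy brain they carry a set of surface receptors, among them the purinergic receptor P2RY12, the fractalkine receptor CX3CR1 and TMEM119, through which they sense nucleotides, neuronal chemokine and damage, and they depend on signalling through the receptor CSF1R and on TGF-beta. When activated they raise lysosomal and phagocytic genes and secrete chemokines, while the surface receptors of the resting state tend to go down. Trpc4 encodes a receptor-operated cation channel that is best known from neurons and endothelium. The comparison asked which transcripts differ in hippocampus of Trpc4 knockout mice, and every difference is given as knockout minus wild type on the log2 scale, where RNA from whole tissue cannot tell fewer cells from less RNA per cell.

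The array medians lay between 4.73 and 4.75, and Pearson's r between arrays across probe sets was 0.985 to 0.988, with probe sets not being independent replicates. Signal for the deleted gene itself was lower in the 3 knockout samples, at 7.39, 7.55 and 7.31, than in the wild-type samples, at 8.06, 8.23 and 8.06. The Trpc4 difference was -0.70 with a standard error of 0.09, and its limma adjusted p over all genes was 0.738. The knockout signal remained at 61.5% of the wild-type signal, and each knockout value stayed over the array medians. Limma called 0 of the 22180 genes at an adjusted p of 0.05, a share of 0%, while 1276 genes (5.75%) had an unadjusted p under 0.05.

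In wild-type hippocampus the markers of the resting state were all measured above the middle of the arrays. The mean signals of all 14 homeostatic genes (the 13 receptors and surface proteins and the transcription factor gene Sall1) lay between 4.97 and 7.53, above the median of all probe sets, which was 4.74. P2ry12 stood at 7.18 ± 0.07 (SD, n = 3), Cx3cr1 at 7.29 ± 0.14, Csf1r at 7.30 ± 0.02, Selplg at 7.53 ± 0.06 and Tmem119 at 5.78 ± 0.12. Of the 8 genes taken as markers of activation (Cd68, Cd14, Ccl3, Ccl4, Lyz2, Ctsz, Trem2 and Fcgr3), 5 lay above that median. Cd14, the lipopolysaccharide co-receptor, at 4.14 ± 0.24, the chemokine gene Ccl3, at 4.07 ± 0.16, and the lysozyme gene Lyz2, at 4.45 ± 0.23, lay below it. Of the other genes, Ptprc, Aif1 and Irf8 were also below, so that 32 of the 38 stood above the median in wild type. That median took in 16010 probe sets that named no gene. Of all 22180 genes tested, 13136 had a wild-type or knockout mean above it, as had 32 of the 38. Signals of different probe sets depend on the probes as well as on the RNA, and these positions give no order of abundance between genes. The wild-type samples were close to each other for most of the set, with SDs from 0.02 for Csf1r to 0.41 for Ptprc.

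**Figure D1:**
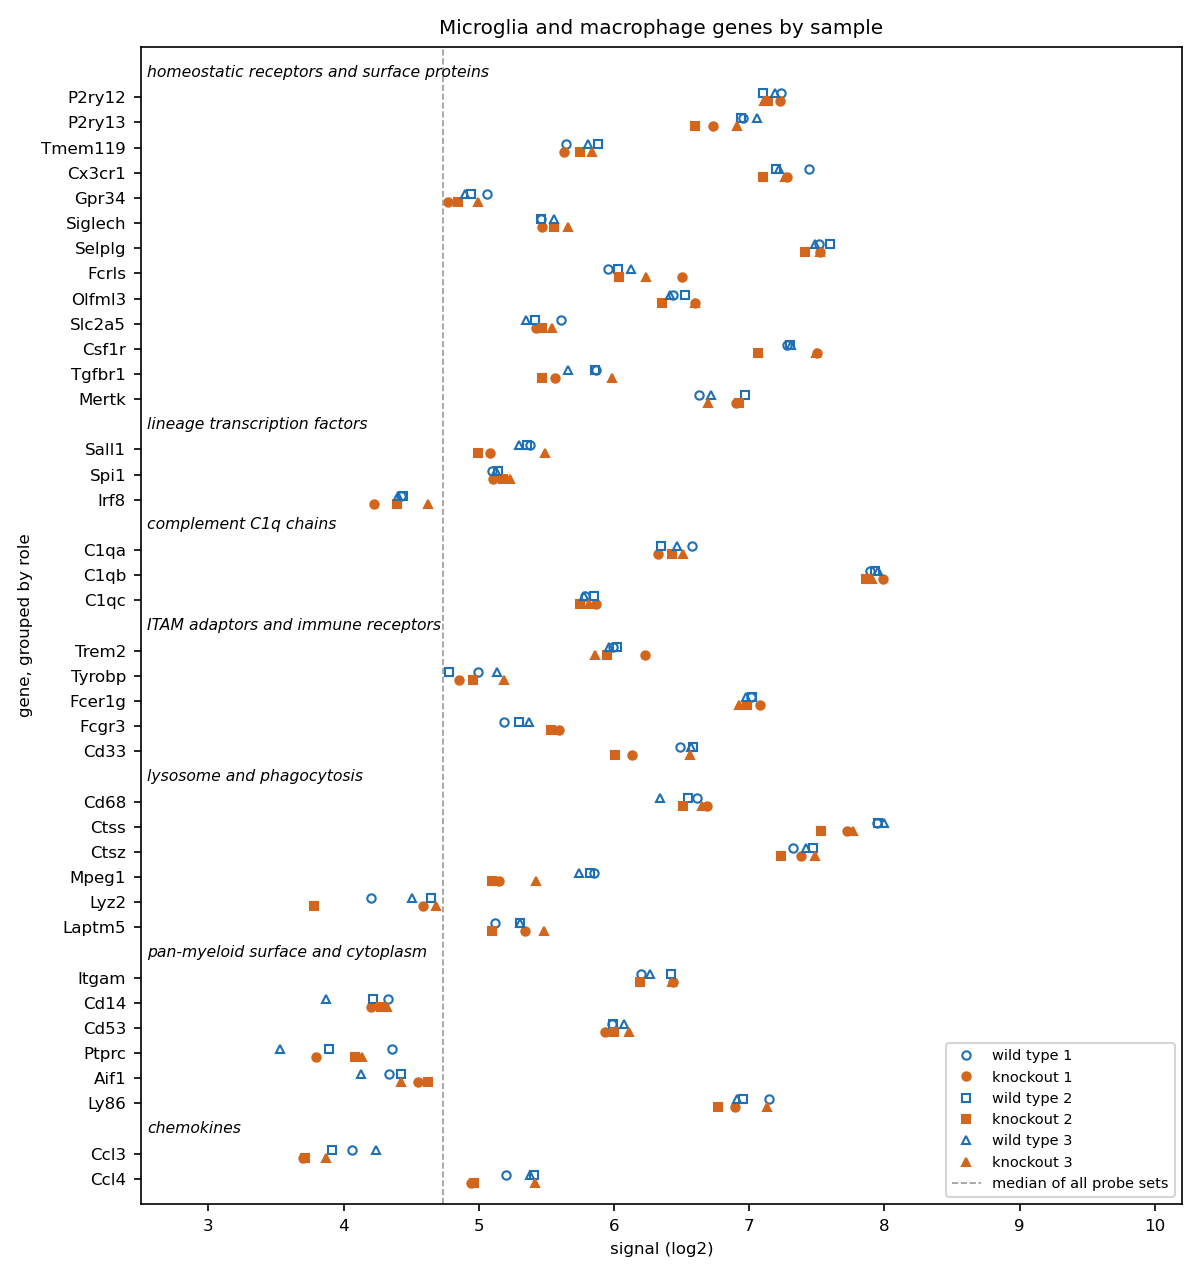
Signal (log2) of the 38 genes in each of the 3 wild-type samples (open symbols) and 3 knockout samples (filled symbols), grouped by role, with the median of all probe sets (4.74) as a dashed line. Most genes have overlapping groups, while all knockout values of Mpeg1, Ctss, P2ry13 and Ccl3 lie below, and those of Fcgr3 above, all wild-type values.

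Between the genotypes most of the set lay close together. The signal was higher in knockout for 17 genes and lower for 21, with a median difference of -0.0047 beside 0.01 over all genes. The difference was smaller than 0.1 in either direction for 24 of the 38 (63.2%), where the share over all genes was 60.0%. For 31 of the 38 the 95% interval of the difference lay between -0.5 and 0.5, and for 17 (44.7%) it lay between -0.3 and 0.3. These interval counts were not made over all genes. The median standard error was 0.0991 in the set and 0.0997 over all genes, so intervals of this width were not particular to the set. No gene of the set passed the adjusted threshold, with limma adjusted p values from 0.799 upwards. At an unadjusted p under 0.05 there were 5, or 13.2%, beside 5.75% over all genes. Of these, 4 were lower in knockout (Mpeg1, Ctss, P2ry13 and Ccl3), where 2.59% of all genes were lower at that p, and 1, Fcgr3, was higher, where 3.16% of all genes were. The same 5 genes were those whose groups did not overlap, a share to be read beside 10.9% of all genes, of which 6.41% were higher and 4.45% lower in every knockout sample. The count of 5 became 3 without wild-type sample 3 or knockout sample 1. Without knockout sample 3 it was 10, with 8 lower and 2 higher (26.3%, beside 6.06% of all genes). Without knockout sample 2 it stayed at 5 (13.2%, beside 5.31% of all genes), but with 2 lower and 3 higher. Csf1r and Fcrls then took the place of P2ry13 and Ccl3. Mpeg1, Ctss and Fcgr3 were among the genes at that p whichever sample was left out.

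**Figure D2:**
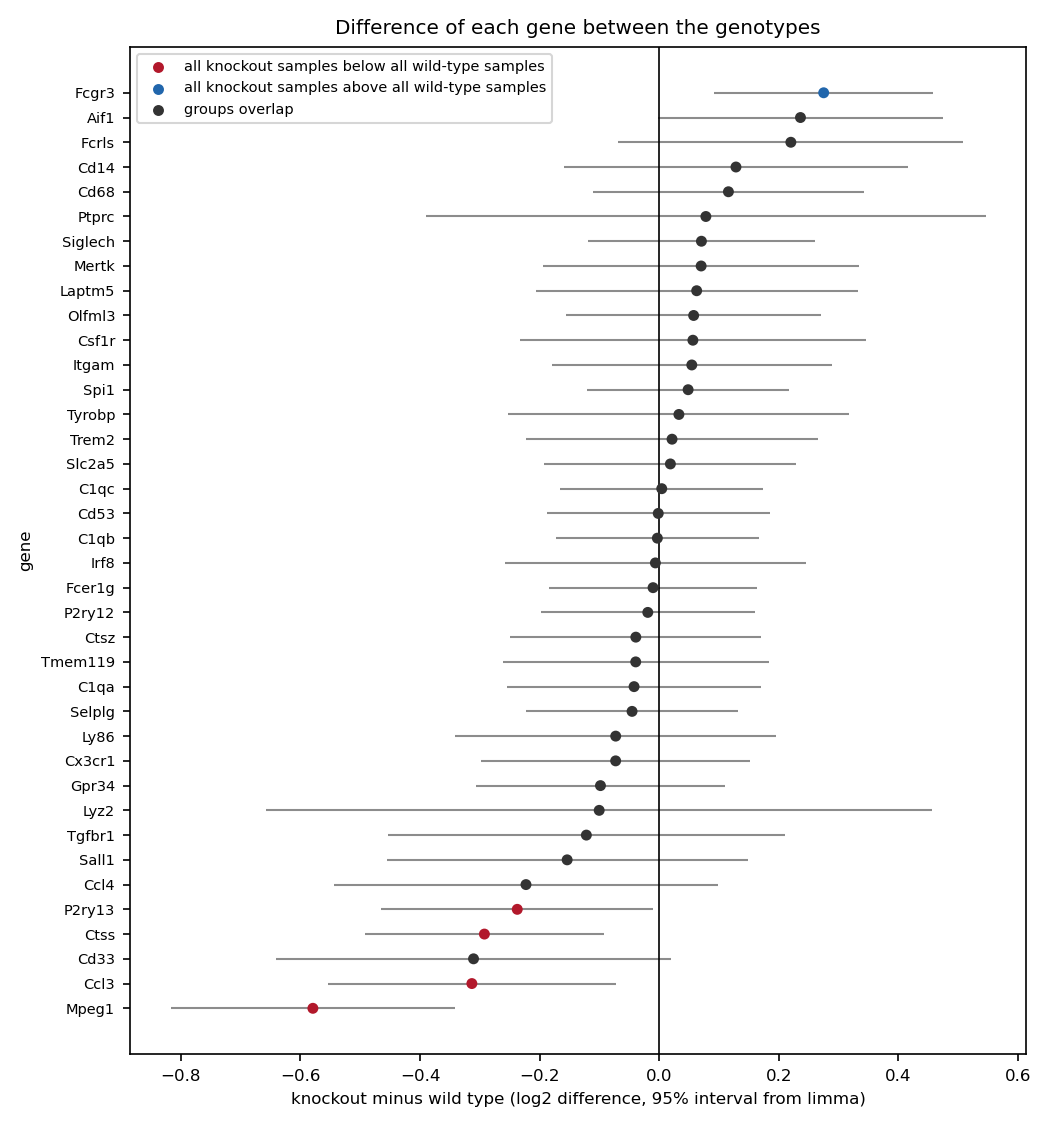
Knockout minus wild type (log2 difference) of the 38 genes with the 95% interval from limma, in order of size. Mpeg1 at -0.58 is the lowest and Fcgr3 at 0.28 the highest; coloured points mark the 5 genes whose groups do not overlap, and none passes the adjusted threshold.

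Among the genes of lysosome and phagocytosis, Mpeg1 and Ctss were lower in every knockout sample. Mpeg1 encodes perforin-2, a pore-forming protein of phagocytes that acts on engulfed bacteria. Its signal was 5.85, 5.82 and 5.74 in the wild-type samples and 5.15, 5.10 and 5.43 in the knockout samples. The wild-type samples lay within 0.11 of each other, and the highest knockout value was below all of them. The difference was -0.58 ± 0.10 (standard error), with a 95% interval of -0.82 to -0.34, a knockout signal that was 66.9% of the wild-type signal. Its unadjusted limma p of 0.000576 was the 15th lowest of all genes and its adjusted p was 0.799. An exact permutation test of 3 against 3 samples cannot give a two-sided p under 0.1, and so could not pass 0.05 for any gene here. Leaving out single samples, Mpeg1 lay between -0.68 (without knockout sample 3) and -0.52 (without knockout sample 2).

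Ctss encodes cathepsin S, a lysosomal cysteine protease that trims the invariant chain of MHC class II. It measured 7.94, 7.95 and 7.999 in wild type and 7.72, 7.53 and 7.76 in knockout. The groups did not overlap, and the difference was -0.29 ± 0.09 (adjusted p 0.849, limma). The other lysosomal genes did not share this. Cd68, a lysosomal membrane glycoprotein gene used to mark phagocytic activity, had a mean of 6.50 ± 0.14 in wild-type samples and of 6.62 ± 0.09 in knockout samples (SD, n = 3 each), and differed by 0.12 with an interval of -0.11 to 0.34, or by 0.04 without wild-type sample 3. The cathepsin Z gene Ctsz differed by -0.04 (interval -0.25 to 0.17) and Laptm5, a lysosomal transmembrane protein gene, by 0.06 (interval -0.21 to 0.33). Lyz2 had the widest interval of the whole set, from -0.66 to 0.46. Its knockout samples measured 4.59, 3.78 and 4.69, with knockout sample 2 far below the others, and without that sample its difference of -0.10 turned to 0.19.

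PU.1, the factor encoded by the member Spi1, binds purine-rich sites with the core GAGGAA in myeloid promoters. Promoter sequences are shown for 3 of the 5 genes whose groups did not overlap. They were picked as the 3 markers with the smallest unadjusted limma p whose promoter held this core on either strand. Its presence in these 3 was therefore fixed in advance. Sequences are those of RefSeq on GRCm38.p6, each the 250 bases before the start of the transcript, written 5′ to 3′ on the strand of the gene, with GAGGAA or its reverse complement TTCCTC in capitals. Fcgr3 is at chr1:171059395-171059644 on the minus strand, Ctss at chr3:95526536-95526785 on the plus strand and Ccl3 at chr11:83649379-83649628 on the minus strand.
Fcgr3: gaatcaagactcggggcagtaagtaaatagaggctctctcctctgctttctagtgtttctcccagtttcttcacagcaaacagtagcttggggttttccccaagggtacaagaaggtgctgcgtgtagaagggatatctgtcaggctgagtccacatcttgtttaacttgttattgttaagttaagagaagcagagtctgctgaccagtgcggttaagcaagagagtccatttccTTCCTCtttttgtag
Ctss: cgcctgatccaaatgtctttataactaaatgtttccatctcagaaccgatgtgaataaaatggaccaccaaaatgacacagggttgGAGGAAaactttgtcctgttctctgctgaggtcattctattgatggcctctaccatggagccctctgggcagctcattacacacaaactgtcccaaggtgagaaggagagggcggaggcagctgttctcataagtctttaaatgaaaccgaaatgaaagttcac
Ccl3: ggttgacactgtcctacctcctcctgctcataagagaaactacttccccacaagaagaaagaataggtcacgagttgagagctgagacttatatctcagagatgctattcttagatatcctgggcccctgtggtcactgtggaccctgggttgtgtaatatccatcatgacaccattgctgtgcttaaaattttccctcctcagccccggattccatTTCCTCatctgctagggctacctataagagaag
The motif begins 15 bases before the start in Fcgr3 and 33 before it in Ccl3, in both on the opposite strand. In Ctss it lies on the strand of the gene, 164 bases before the start, and a further match on the opposite strand begins at the first base of the transcript. Fcgr3 also had another annotated start, upstream of the one used here, from which its motif lies nearer. Windows of 300 bases, which add the first 50 of the transcript, were in the table for 29 of the 38 genes, and 17 of the 29 (58.6%) held the motif on either strand in at least 1 window. Among all tested genes with a window the share was 30.2%, 5135 of 16990. Mpeg1 and P2ry12 held no match in their window, while P2ry13 held 1. A match of 6 letters is a description of the sequence and does not show binding.

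The homeostatic receptors and surface proteins, 13 genes, had 6 higher and 7 lower signals in knockout, with a median of -0.02. P2ry12, the ADP receptor that steers microglial processes to injury, measured 7.24, 7.10 and 7.19 in wild type and 7.22, 7.14 and 7.11 in knockout. These values overlapped throughout, and the difference was -0.02 with an interval of -0.20 to 0.16. P2ry13, a related ADP receptor gene, measured 6.96, 6.94 and 7.06 in wild type and 6.73, 6.60 and 6.91 in knockout. All knockout samples were lower, knockout sample 3 by the least, and the difference was -0.24 ± 0.10 (limma adjusted p 0.853). P2ry13 and P2ry12 lie side by side on chromosome 3, the chromosome of Trpc4, with 32 protein-coding genes between Trpc4 and P2ry13 in the RefSeq table. Without knockout sample 3 P2ry13 differed by -0.32, and without knockout sample 2 by -0.16.

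Cx3cr1, the receptor for the neuronal chemokine fractalkine, differed by -0.07 (interval -0.30 to 0.15) and Tmem119, a membrane protein gene that separates microglia from most other macrophages, by -0.04 (interval -0.26 to 0.18). Csf1r, the receptor on which microglial survival depends, was 7.28, 7.30 and 7.31 in wild type and 7.50, 7.07 and 7.50 in knockout. Knockout samples 1 and 3 were above and knockout sample 2 below every wild-type sample, so that its difference was 0.06, and 0.20 without knockout sample 2 or -0.02 without knockout sample 1 or 3. The TGF-beta receptor gene Tgfbr1 also had knockout samples on both sides of the wild type, with 5.56, 5.47 and 5.99 in knockout against 5.86, 5.86 and 5.66, and differed by -0.12, or -0.28 without knockout sample 3 and -0.02 without knockout sample 2. Fcrls, an Fc receptor-like gene of microglia, differed by 0.22 ± 0.12, with knockout sample 1 highest at 6.50, and by 0.10 without that sample. Without knockout sample 2 the Fcrls difference was 0.33. The lectin gene Siglech differed by 0.07, the phagocytic kinase gene Mertk by 0.07, the secreted glycoprotein gene Olfml3 by 0.06 and the fructose transporter gene Slc2a5 by 0.02. The lysophosphatidylserine receptor gene Gpr34 differed by -0.10 and the selectin ligand gene Selplg by -0.05. For each of these 6 genes the groups overlapped.

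The transcription factor genes that set microglial identity were not called. Sall1, which in brain keeps microglia in the resting state, measured 5.38, 5.35 and 5.30 in wild type and 5.09, 4.99 and 5.49 in knockout. Knockout samples 1 and 2 were below and knockout sample 3 above all wild-type samples, so that the difference was -0.15 (interval -0.46 to 0.15), -0.30 without knockout sample 3 and -0.06 without knockout sample 2. Spi1, which encodes PU.1, differed by 0.05 (interval -0.12 to 0.22). Irf8, a partner of PU.1, differed by -0.0064 with an interval of -0.26 to 0.25, while its knockout values of 4.22, 4.40 and 4.62 were more spread than its wild-type values of 4.43, 4.44 and 4.40.

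The 3 chains of complement C1q, which tags synapses and debris for uptake and comes mostly from microglia in brain, lay close together in both genotypes. C1qb measured 7.89, 7.93 and 7.95 in wild type and 7.99, 7.87 and 7.91 in knockout, a difference of -0.0031 with an interval of -0.17 to 0.17. C1qa differed by -0.04 (interval -0.25 to 0.17) and C1qc by 0.0043 (interval -0.17 to 0.17). The sign of C1qc turned with quantile normalization and with median centring. The genes lie in a row on chromosome 4 with 0 protein-coding genes between neighbours.

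Of the adaptors and receptors that signal through ITAM motifs, and Cd33, only Fcgr3 had groups that did not overlap. Fcgr3, a low-affinity receptor for IgG that activates phagocytes, measured 5.19, 5.30 and 5.37 in wild type and 5.60, 5.53 and 5.56 in knockout. Every knockout sample was higher, the knockout SD was 0.03, and the difference was 0.28 ± 0.08 (interval 0.09 to 0.46, limma adjusted p 0.849). With any 1 sample left out it stayed within 0.225 to 0.319. Its signalling chain, Fcer1g, differed by -0.01 (interval -0.18 to 0.16). Trem2, a lipid-sensing receptor, measured 5.99, 6.02 and 5.96 in wild type and 6.23, 5.95 and 5.86 in knockout, a difference of 0.02, and its adaptor Tyrobp differed by 0.03 (interval -0.25 to 0.32). Cd33, a sialic acid-binding receptor, measured 6.48, 6.58 and 6.57 in wild type and 6.13, 6.01 and 6.57 in knockout. Knockout samples 1 and 2 were below every wild-type sample and knockout sample 3 among them. The difference was -0.31 ± 0.14, -0.48 without knockout sample 3 and -0.20 without knockout sample 2.

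Among the general myeloid genes, 4 of 6 had higher and 2 lower signals, with a median of 0.07. Aif1, which encodes the cytoskeletal protein IBA1 used to stain microglia, measured 4.34, 4.43 and 4.13 in wild type and 4.55, 4.62 and 4.43 in knockout. The lowest knockout sample and the highest wild-type sample were nearly level. The difference was 0.24 ± 0.10 (limma adjusted p 0.853), or 0.15 without wild-type sample 3 and 0.30 without wild-type sample 2. Cd14 differed by 0.13, and by -0.0069 without wild-type sample 3, which at 3.87 was its lowest value. The integrin gene Itgam differed by 0.05, the phosphatase gene Ptprc by 0.08 with an interval of -0.39 to 0.55, the tetraspanin gene Cd53 by -0.0016 and Ly86, a partner of a Toll-like receptor relative, by -0.07.

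The chemokines Ccl3 and Ccl4, secreted proteins that attract leukocytes, whose genes lie side by side on chromosome 11, both had lower mean signals in knockout. Ccl3 measured 4.07, 3.92 and 4.24 in wild type and 3.70, 3.71 and 3.87 in knockout, all below the median of all probe sets. The groups did not overlap, and the difference was -0.31 ± 0.10 (limma adjusted p 0.849). Ccl4 measured 5.20, 5.41 and 5.38 in wild type and 4.95, 4.96 and 5.41 in knockout, with knockout samples 1 and 2 below every wild-type sample and knockout sample 3 level with the highest. Its difference was -0.22 ± 0.14, -0.38 without knockout sample 3 and -0.14 without knockout sample 1.

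A score gave the level of the whole set in each sample, as the mean over the 38 genes of the deviation from the gene's mean over the 6 arrays. It was 0.02, 0.03 and -0.0057 in wild-type samples 1 to 3 and -0.02, -0.11 and 0.08 in knockout samples 1 to 3. The group means of 0.02 ± 0.02 and -0.02 ± 0.09 (SD, n = 3 each) differed by -0.03, less than the spread of the knockout samples, whose values lay on both sides of all wild-type values. Without knockout sample 2 the difference was 0.01 and without knockout sample 3 it was -0.08. The homeostatic genes gave 0.02, 0.02 and -0.01 in wild type and -0.0029, -0.11 and 0.08 in knockout. The activation genes gave -0.02, 0.05 and -0.0027 in wild type and 0.03, -0.14 and 0.09 in knockout. Both kinds of gene were lowest in knockout sample 2 and highest in knockout sample 3.

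**Figure D3:**
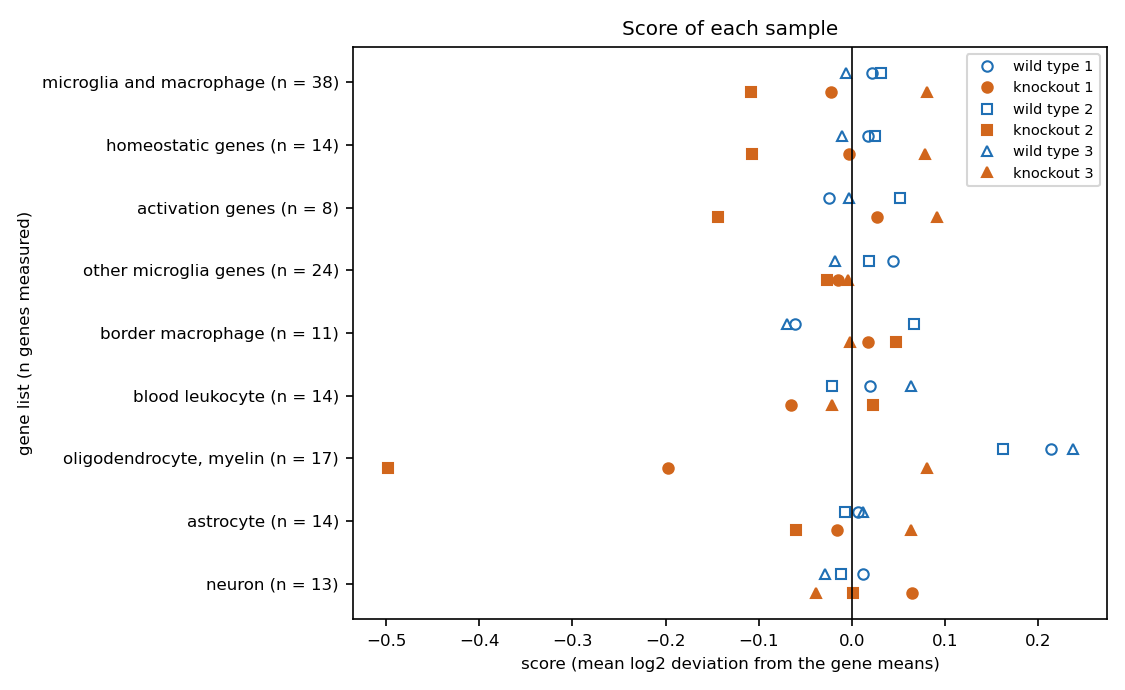
Score of each sample (mean log2 deviation from the gene means) for the 38 genes, their homeostatic and activation genes, and lists of other cell types, with the number of genes measured in brackets. For the 38 genes the wild-type samples lie between -0.0057 and 0.03 and the knockout samples between -0.11 and 0.08. In the oligodendrocyte, astrocyte and other microglia lists the knockout samples stand in the same order, over a narrow range in the last. In the border macrophage, blood leukocyte and neuron lists they stand in other orders.

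The knockout samples differed more among themselves than the wild-type samples for 25 of the 38 genes (65.8%), where the share over all genes was 49.4%. Knockout sample 2 held the lowest value of all 6 samples for 17 genes (15.1% of all genes). Knockout sample 3 held the highest for 11, knockout sample 1 for 10 and wild-type sample 1 for 9, beside 15.3%, 18.9% and 15% of all genes. Knockout sample 3 was above knockout sample 2 for 33 of 38 (86.8%), beside 47.6% of all genes. These counts were chosen after the values were seen. Knockout sample 2 was below every wild-type sample for 22 genes, knockout sample 1 for 14 and knockout sample 3 for 6, where each stood at 22.2%, 23.7% and 22.4% of all genes.

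**Figure D4:**
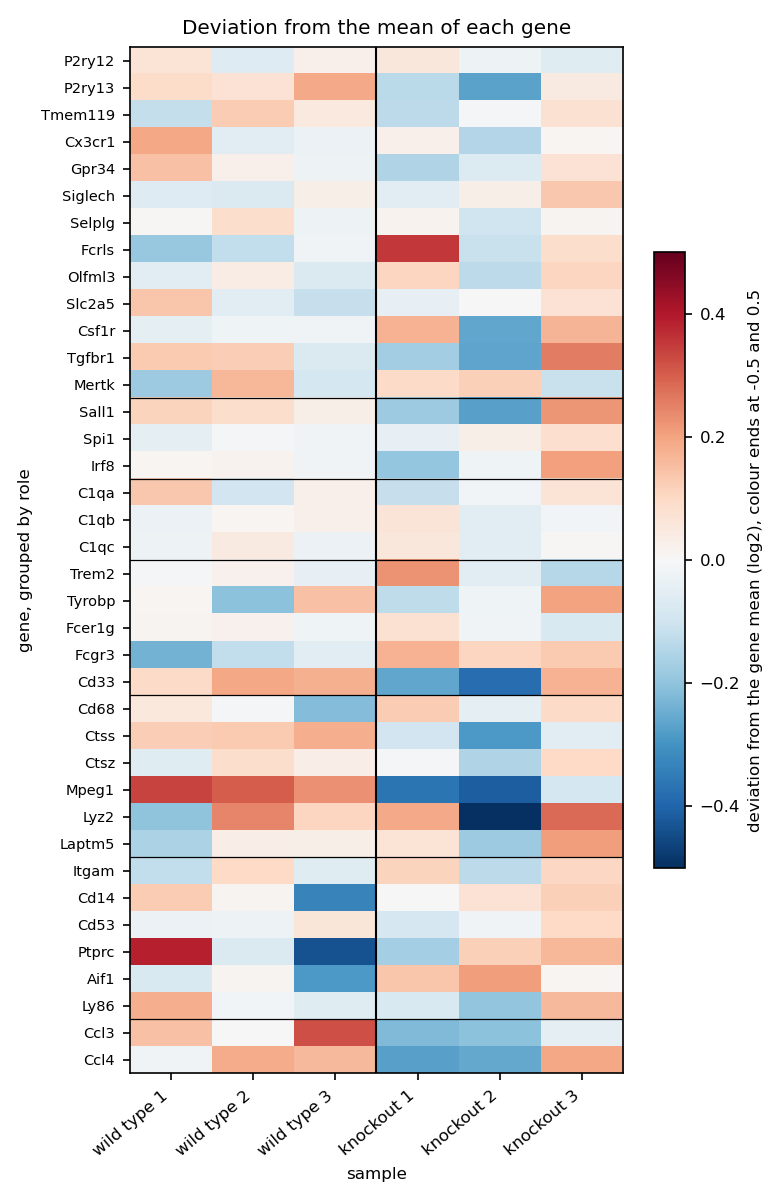
Deviation of each gene from its own mean over the 6 samples (log2), with genes grouped by role; the colour scale ends at -0.5 and 0.5, and Lyz2 in knockout sample 2 lies beyond it. Knockout sample 2 has the lowest value for 17 genes, where that share of all genes is 15.1%. The highest value lies in knockout sample 3 for 11 genes, in knockout sample 1 for 10 and in wild-type sample 1 for 9 (15.3%, 18.9% and 15% of all genes).

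From low to high, the knockout order of samples 2, 1 and 3 held for 10 of the 38 markers (26.3%, beside 15.1% of all genes). Markers of myelinating oligodendrocytes, taken as a mean, stood in this order. Their score, over 17 genes, was 0.21, 0.16 and 0.24 in wild-type samples and -0.20, -0.50 and 0.08 in knockout samples 1 to 3. All 17 had lower signals in knockout, 14 of them at an unadjusted limma p under 0.05, where 2.59% of all genes were lower at that p. The astrocyte score, over 14 genes, lay between -0.0074 and 0.01 in wild type and was -0.02, -0.06 and 0.06 in knockout samples 1 to 3, the same order again. The mural cell and fibroblast score, over 13 genes, stood at -0.0037, -0.11 and 0.0011 in these samples, also in that order. Neuron markers, 13 genes, stood at 0.07, 0.0016 and -0.04 there, in another order. Endothelial markers (-0.11, -0.02 and 0.0045), border macrophage markers (0.02, 0.05 and -0.0018) and blood leukocyte markers (-0.07, 0.02 and -0.02) also stood in other orders. Of the lists described further below, genes that rise around plaques and damage (-0.04, -0.07 and 0.02) stood in the order 2, 1 and 3. So did complement genes other than C1q (0.02, -0.03 and 0.04) and interferon response genes (-0.03, -0.10 and 0.04). The same held for MHC class II genes (-0.03, -0.06 and 0.12). Signals that sustain or restrain microglia (0.07, 0.01 and -0.03) and inflammatory genes (0.028, -0.057 and 0.026) stood in other orders. Knockout sample 3 was the highest of the knockout samples for 23 of the 38 marker genes (60.5%, beside 31.1% of all genes). All 4 genes that were lower without overlap, Mpeg1, Ctss, P2ry13 and Ccl3, were among them, as were Cd33, Ccl4, Sall1 and Tgfbr1. The part of tissue composition in these differences was not tested.

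Markers of other macrophages and of blood cells lay mostly below the array-wide median. Of 11 measured genes of border macrophages, which line vessels and meninges, 1 lay above the array-wide median in wild type, with Mrc1 at 4.37, Lyve1 at 4.30 and Cd163 at 3.66. Their scores ranged from -0.07 to 0.07 in wild type and from -0.0018 to 0.05 in knockout. The list had 5 higher and 6 lower genes with a median of -0.0081. Only the platelet factor gene Pf4 was at an unadjusted limma p under 0.05, which 5.75% of all genes had. It was higher by 0.25 ± 0.08, from a dim wild-type signal of 3.18. Of 14 blood leukocyte markers, 1 lay above the array-wide median, and 3 were higher and 11 lower in knockout with a median of -0.04. The monocyte gene Ly6c2, dim at 3.34 in wild type, was the only one at that p, at -0.28 ± 0.10. The scores of the 14 markers ranged from -0.02 to 0.06 in wild type and from -0.07 to 0.02 in knockout. Of 7 red blood cell markers only Slc4a1 was measured, at -0.02. Endothelial markers had 2 higher and 11 lower of 13, and mural cell and fibroblast markers 4 higher and 9 lower of 13, with medians of -0.10 and -0.02. At that p were the endothelial transporter gene Abcb1a at -0.26 ± 0.09, the smooth muscle actin gene Acta2 at -0.24 ± 0.09 and the pericyte potassium channel gene Kcnj8 at -0.23 ± 0.09. All were lower in every knockout sample, as were 4.45% of all genes.

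Further genes of microglial function did not pass the adjusted threshold in either direction, and the counts that follow are at an unadjusted p under 0.05, which 5.75% of all genes had. Of 24 other microglia genes, 9 were higher and 15 lower (median difference -0.03), and 1 was at that p, the actin regulator gene Was at -0.27 ± 0.10. Their score was 0.04, 0.02 and -0.02 in wild-type samples and -0.01, -0.03 and -0.0042 in knockout samples 1 to 3, a narrower knockout range than that of the 38 markers. Of 17 genes known to rise in microglia around plaques and damage, 3 were higher and 14 lower (median difference -0.05), and 0 were at that p. Among them the protease inhibitor gene Cst7 differed by 0.18 ± 0.08, with all knockout samples above all wild-type samples, and the tetraspanin gene Cd63 by -0.18 ± 0.10. Apoe differed by -0.06.

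Of 10 genes for signals that sustain or restrain microglia, 7 were higher and 3 lower (median difference 0.06). Il34, a neuronal ligand of CSF1R, was higher in every knockout sample, with a difference of 0.19 ± 0.08, and was the only one at that p. Of the others Cd200r1, the gene of a receptor for CD200, differed by 0.09 from a dim wild-type signal of 2.14, and Sirpa and Cd200 both by 0.07. Complement genes other than C1q had 5 higher and 3 lower of 8, with a median of 0.04 and 0 at that p. Inflammatory cytokines and targets of NF-kappa B had 8 higher and 6 lower of 14, with a median of 0.04 and 0 at that p, and the tumour necrosis factor gene Tnf differed by -0.22 ± 0.11. The median and the mean of that list differed in sign, the mean being -0.0019. Of 14 interferon response genes, 6 were higher and 8 lower (median difference -0.03). At that p, Usp18, which dampens interferon signalling, was higher by 0.34 ± 0.12, while Ifit2 at -0.34 ± 0.11 and Oasl2 at -0.47 ± 0.18 were lower. All 3 had wild-type means below the median of all probe sets. Of 6 genes of MHC class II, 4 were higher and 2 lower (median difference 0.04), and H2-Aa, a dim gene at 2.93 in wild type, was the only one at that p, higher by 0.25 ± 0.09.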

How the data were processed

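Total RNA was extracted with Trizol and labelled with biotin, per the labels' protocols. The authors deposited log2 signals per probe set, for which the submitters' processing notes name Affymetrix Power Tools and RMA. Their versions, the genome build and the annotation: not given in the sources used here. RMA in general makes the arrays' distributions alike, so a shift shared by most genes would not show. No scans were used here, so no signal was set against a measured background, and the number of arrays limits the precision (median standard error of a difference 0.0997).

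Of 41345 probe sets, 23521 named 1 gene, 1814 several and 16010 none. All 38 markers matched a RefSeq table of GRCm38.p6 by gene number and symbol. It served for names, gene order and promoters. A limma 3.58.1 fit in R 4.3.3 (lmFit and eBayes, genotype as its only term) gave knockout minus wild type for all 22180 genes, with Benjamini-Hochberg adjustment at 0.05, and the fit was tested on simulated data. Figures used matplotlib 3.10.9 in Python 3.11.15. The markers, lists and tests were chosen with earlier results of these data known. Every marker is named, and up to 4 genes of each other list by smallest unadjusted p. Mrc1, Lyve1, Cd163 and Apoe were added after their values were seen. Alternatives changed the scaling (quantile, median centring), the model (array weights, robust variance with a trend, replicate block), the genes and probe sets used (no dim genes, gene means, every probe set) or the p limit, or left out each sample.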

Additional observations from a re-analysis of the deposited data

How the results depend on the processing

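Under every alternative run, 0 of the 38 genes passed the adjusted threshold (lowest adjusted p 0.536 to 0.985). Over all genes the count of 0 became 1 with trend and robust variance, where Trpc4, at the same difference of -0.70, had an adjusted p of 0.0378, and was 0 to 1 without single samples. The 5 marker genes at an unadjusted p under 0.05 became 2 at an unadjusted p of 0.01 and 3 to 10 without single samples. With the replicate block they were 6, Aif1 being added, and Trpc4 stayed at -0.70. Correlations of same-numbered samples' deviations from their group means were 0.067, 0.035 and -0.004. Wild-type replicates 1 and 2 each correlated best with the same-numbered knockout replicate, and wild-type replicate 3 with knockout replicate 2 (0.011). With values this small and 3 samples per group, these correlations cannot decide whether the replicate numbers pair the samples.

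The sign of a difference held under every alternative run for 18 of the 38 genes. Small differences turned for C1qc with quantile normalization (-0.0033) and median centring (-0.00048), and with array weights for Cd53 (0.0023) and Irf8 (0.0042). Without single samples 20 genes turned, over these ranges of the difference: Cx3cr1 -0.12 to 0.0058, P2ry12 -0.056 to 0.011, Tmem119 -0.11 to 0.016, Csf1r -0.016 to 0.20, C1qa -0.10 to 0.015, C1qb -0.037 to 0.025, C1qc -0.023 to 0.033. Further ranges were Trem2 -0.085 to 0.10, Tyrobp -0.062 to 0.12, Cd14 -0.0069 to 0.22, Cd53 -0.051 to 0.040, Ptprc -0.12 to 0.29, Laptm5 -0.026 to 0.17, Fcer1g -0.051 to 0.025. The others were Ly86 -0.17 to 0.0078, Lyz2 -0.27 to 0.19, Irf8 -0.11 to 0.089, Ctsz -0.10 to 0.026, Slc2a5 -0.034 to 0.094, Mertk -0.0027 to 0.17. Of those that kept their sign, Itgam ranged from 0.0068 to 0.13, Siglech from 0.021 to 0.12, Olfml3 from 0.018 to 0.14, Spi1 from 0.018 to 0.082, Selplg from -0.070 to -0.0069, Gpr34 from -0.16 to -0.048 and Cd68 from 0.036 to 0.17. None of the 20 that turned passed the adjusted threshold in any of these fits. With a sample left out the fit compared 3 samples with 2.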
